A study of Mus musculus with 12 samples.

Results

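Neutrophils empty their granules through a small set of proteins that carry the vesicle to the plasma membrane, hold it there and fuse it. The 10 genes of this machinery described here were chosen by name, as listed Rab27 effector, Munc13/Munc18, syntaxin, SNAP and VAMP genes of neutrophil exocytosis: Sytl1, Madd, Unc13d, Stxbp2, Stx11, Stx3, Snap23, Vamp3, Vamp7 and Vamp8. They are 10 of 15986 genes with estimated counts, and all 10 passed the filter on low counts that left 10802 genes for testing. The cells were Ly6G+ mature neutrophils from the bone marrow of C57BL/6 mice, either wild-type or Rab27aKO (knockout), incubated at 37C for 6 h, either with CpG-B (5 µM ODN 1826, an oligonucleotide ligand of the DNA sensor TLR9) or without. The labels name the condition without CpG-B once as vehicle and once as untreated, and it is called unstimulated here. Each of the 4 groups had 3 libraries, numbered 1 to 3. Neither the Rab27a allele nor the age of the mice is given in the sources used here. Nothing states that each library came from a separate animal, so p-values measure only the spread between these samples. The study's title places the comparison in work on endomembrane traffic, nucleic acid sensing and cytokine secretion.

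As background, the small GTPase Rab27a sits on granule membranes in its active form and binds effector proteins that tether the granule to the plasma membrane. Sytl1 (also called JFC1) and Unc13d (Munc13-4) are such effectors, and Madd is an exchange factor that loads Rab3 and Rab27 proteins with GTP. Fusion is driven by SNARE proteins, which zip together from both membranes: the VAMPs on the granule, and the syntaxins with Snap23 on the target membrane. Stxbp2 (Munc18-2) binds syntaxins such as Stx11 and guides the assembly. Loss of human UNC13D, STX11 or STXBP2 causes familial hemophagocytic lymphohistiocytosis, a failure of lymphocyte granule release.

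Rab27a itself was checked first. Its level was 231.3, 250.9 and 334.7 CPM (counts scaled to library totals adjusted with TMM factors) in the unstimulated wild-type libraries and 206.6, 216.1 and 285.2 CPM in the wild-type libraries with CpG. The knockout libraries held 129.4, 115.8 and 94.91 CPM unstimulated and 113.5, 112.6 and 96.1 CPM with CpG. All 6 knockout libraries lay below all 6 wild-type libraries, and the fitted difference averaged over treatments was -1.20 on the log2 scale (SE 0.12, adjusted p = 1.29e-05, edgeR quasi-likelihood with Benjamini-Hochberg). Rab27a transcript was still counted in the knockout.

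Library totals ran from 10928813 to 15513279 estimated counts. The 10 neutrophil markers (S100a8, S100a9, Ly6g and others) summed to between 53410 and 90700 CPM. The lowest sum was that of knockout library 2 with CpG. S100a9 was at 21480 CPM there, against 43010 and 34080 CPM in knockout libraries 1 and 3 with CpG. On the length-scaled TPM the gap was smaller, at 164400 against 186800 and 172600 TPM. Not all 10 markers followed the sum: Cxcr2 was highest of its group in that library (1864 CPM). Libraries of the knockout stood apart from each other in other cell types. The summed level of 6 erythroid markers was 182.9, 779.4 and 2510 CPM in unstimulated knockout libraries 1, 2 and 3, and 210.2, 631.3 and 2504 CPM with CpG, against 1617 to 2073 CPM in the 6 wild-type libraries. Among the 6, Hbb-bt was low in every knockout library (0.615 to 6.959 CPM, against 307.5 to 453.2 CPM in wild-type), so the sums differ between genotypes partly through this gene. Hba-a1 followed the order of the sums in the knockout (171, 719 and 2301 CPM unstimulated, 194.5, 569.1 and 2310 CPM with CpG). The 6 B lineage markers followed the same order in the knockout, from 6.33 to 102 CPM, and 5 granulocyte progenitor markers ran from 426.5 to 953.6 CPM there. With CpG, the 8 monocyte or macrophage markers summed to 872.3 to 887.1 CPM in wild-type, against 444.1 to 457.4 CPM without it, and to 1011 to 1262 CPM in the knockout, against 367.7 to 484.7 CPM. Of these 8, Csf1r and Adgre1 rose with CpG in both genotypes and the other 6 passed the test in neither genotype. Averaged over genotypes, 4 of the 8 estimates were above 0, with 2 called higher and 1 lower, beside 10.2% and 7.08% of all genes. Mean Ccr2, for example, went from 9.855 to 4.331 CPM in wild-type and from 14.73 to 8.852 CPM in the knockout. The sums therefore do not stand for the list as a whole. No marker of these lists was at 0 in every library. In bulk samples, fewer cells of a type and less RNA per cell cannot be told apart.

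In the edgeR fit without a block, knockout of Rab27a went with higher Snap23 and Madd and, only averaged over treatments, with lower Sytl1. CpG went with lower Madd and, in the knockout, with higher Vamp7. The Vamp7 call was kept in 3 of 12 fits that leave out 1 library. The remaining 6 members were not called in any of the 7 comparisons by the edgeR fit without a block. In the unstimulated cells 2 of the 10 members were called between genotypes at an adjusted p of at most 0.05, both higher in the knockout (Snap23 and Madd), against 4.75% of all genes tested. With CpG present no member was called by edgeR between genotypes, where 3.92% of all genes were; 4 members had an unadjusted p under 0.05, and DESeq2 called 0. Averaged over both treatments, 3 members were called (Snap23 and Madd higher, Sytl1 lower), against 12.2% of all genes; with animal as a random block in limma voom it was 2 (Sytl1 was lost), against 5.46%. CpG changed no member in wild-type by edgeR, against 6.04% of all genes; 1 member had an unadjusted p under 0.05, and DESeq2 called 0. In the knockout CpG changed 2 members (Vamp7 higher, Madd lower), against 11.6% of all genes, and averaged over genotypes it changed 1 (Madd), against 17.3%. With animal as a block edgeR called more genes altogether: 1 member for CpG in wild-type (Madd) against 16.9% of all genes, 3 in the knockout (Vamp7, Madd and Stx3) against 24%, and 3 averaged over genotypes (Madd, Vamp7 and Sytl1) against 30.1%. In the interaction of genotype and CpG edgeR called 0 members and 0% of all genes; 0 members and 365 genes had an unadjusted p under 0.05, DESeq2 called 0 members and 3 genes, and edgeR with animal as a block 0 members and 13 genes. None of the genotype differences is therefore shown to depend on CpG. The comparisons that use the same libraries are not independent of each other.

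**Figure D1:**
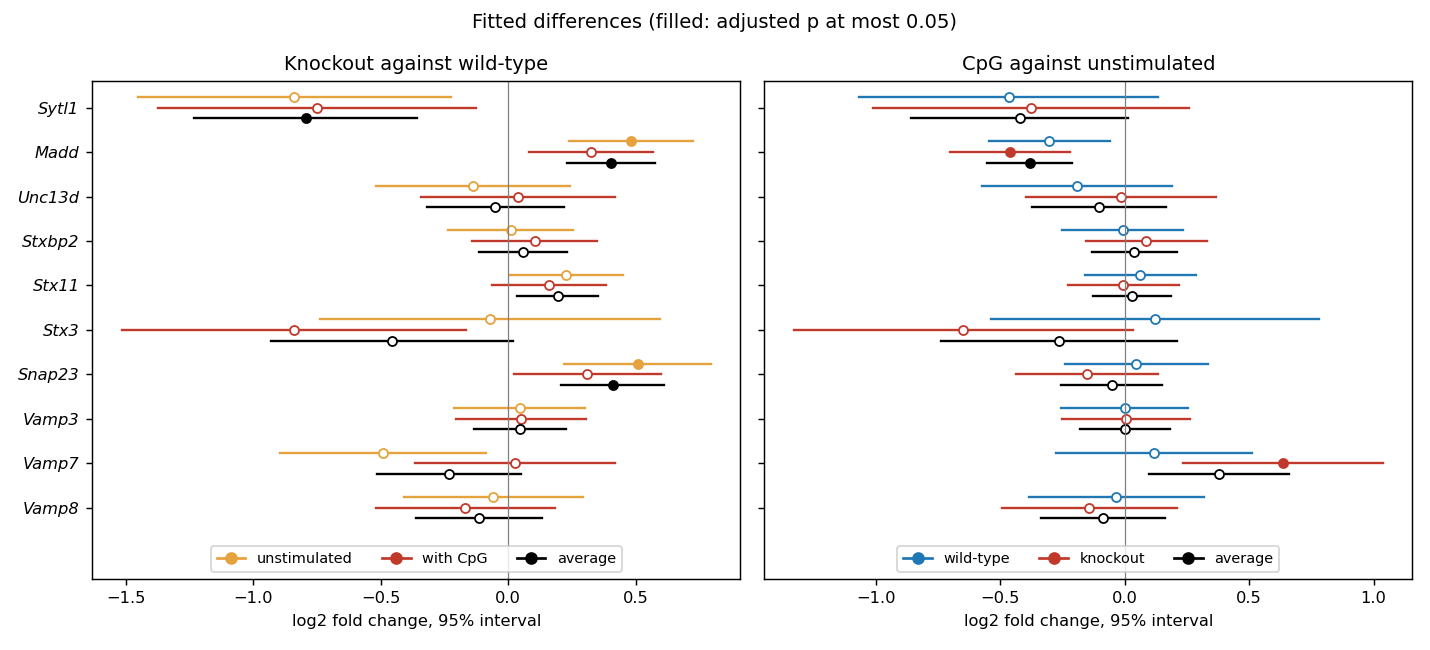
Log2 fold changes (horizontal axis) of the 10 genes with 95% intervals, for knockout against wild-type (left) and CpG against unstimulated (right), within each stratum and averaged. Filled points had an adjusted p of at most 0.05: Snap23, Madd and Sytl1 on the left, Madd and Vamp7 on the right.

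The median log2 difference of the 10 members was -0.03 between unstimulated genotypes (5 of 10 estimates above 0) and 0.04 with CpG (7 of 10), beside medians of -0.01 and 0.00 over all genes tested. For CpG it was 0.00 in wild-type (5 of 10 above 0) and -0.08 in the knockout (3 of 10), beside -0.01 in both genotypes over all genes.

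The sequences just upstream of the 3 genes that differed between genotypes are given because their transcripts carry the genotype differences in the set. They are the 250 bases before the annotated start from RefSeq (mouse build GRCm38.p6, written 5′ to 3′ on the gene's own strand). The table holds 8 starts for 7 of the 10 members; Unc13d, Vamp3 and Vamp7 were not matched. Capitals mark matches, on either strand, to 6 motifs. They are the GC box (letters GGGCGG, held by 32.7% of 32851 mouse promoter windows of this length), the CCAAT box (held by 33.8%), the TATA box (letters TATAAA, held by 12.4%) and the E-box (letters CACGTG, held by 6.02%). Also searched were the C/EBP motif (letters TTGCNNAA, held by 9.56%) and the PU.1 motif (letters GAGGAAGT, held by 2.44%). Snap23 lies on chr2:120567421-120567670 (+ strand), the first start of Madd on chr2:91183048-91183297 (- strand) and Sytl1 on chr4:133263088-133263337 (- strand).
Snap23: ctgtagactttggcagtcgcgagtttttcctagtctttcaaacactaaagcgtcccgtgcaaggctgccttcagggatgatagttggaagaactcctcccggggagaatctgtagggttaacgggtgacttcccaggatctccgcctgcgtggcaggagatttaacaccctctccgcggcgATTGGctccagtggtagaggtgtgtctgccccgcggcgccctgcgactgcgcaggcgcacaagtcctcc
Madd: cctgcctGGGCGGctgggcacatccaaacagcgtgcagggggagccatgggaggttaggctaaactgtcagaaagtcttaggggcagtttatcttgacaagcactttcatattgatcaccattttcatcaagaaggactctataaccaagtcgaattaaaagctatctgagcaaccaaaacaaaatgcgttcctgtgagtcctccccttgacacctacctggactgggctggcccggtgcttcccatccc
Sytl1: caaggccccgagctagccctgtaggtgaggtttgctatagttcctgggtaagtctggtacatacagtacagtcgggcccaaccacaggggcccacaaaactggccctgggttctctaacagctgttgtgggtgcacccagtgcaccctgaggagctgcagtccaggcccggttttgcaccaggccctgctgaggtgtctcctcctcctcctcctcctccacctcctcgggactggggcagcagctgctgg
Snap23 held 1 CCAAT match, read on the other strand, Madd held 1 GC box at its first start and Sytl1 held none of the 6. The second start of Madd, not printed, held 1 GC box and 1 CCAAT match. These are matches of letters, not sites shown to be bound.

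On the length-scaled TPM scale, which allows genes to be compared with each other, the set ran from abundant to scarce transcripts. Mean TPM over the 12 libraries was 328.0 for Vamp8, 318.5 for Snap23, 302.6 for Stxbp2, 172.5 for Stx11, 71.4 for Vamp3, 56.1 for Unc13d, 30.1 for Madd, 6.39 for Sytl1, 4.86 for Stx3 and 4.72 for Vamp7. Granule VAMP8, the target-membrane SNARE Snap23 and the syntaxin chaperone Stxbp2 were thus the 3 most abundant, and the first tethering effector in the list, Sytl1, was among the 3 scarcest. Neighbours at the bottom did not differ beyond their spread: Stx3 ran from 2.00 to 7.44 TPM, Vamp7 from 3.26 to 6.20 TPM and Sytl1 from 2.57 to 11.3 TPM. On CPM, which does not correct for length, Vamp8 took place 5 instead of place 1.

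The order of the top 3 is described without a test. In unstimulated wild-type cells Vamp8 (296.6 to 369.9 TPM) lay above Stxbp2 (292.7 to 295.5 TPM) and Stxbp2 above Snap23 (228.3 to 282.8 TPM), with no overlap between neighbours. In unstimulated knockout cells Snap23 (366.5 to 447.7 TPM) came first, above Vamp8 (328.7 to 363.7 TPM), and Vamp8 lay above Stxbp2 (298.2 to 328.6 TPM). In wild-type with CpG Vamp8 (321.7 to 330.6 TPM) lay above both, and Snap23 (225.5 to 297.7 TPM) overlapped Stxbp2 (284.6 to 294.2 TPM). With CpG in the knockout Snap23 was at 319.8 to 349.9 TPM, and it overlapped Vamp8 (279.0 to 346.1 TPM) and Stxbp2 (294.6 to 320.3 TPM). Snap23 made up 21.4% of the summed TPM of the 10 genes in unstimulated wild-type cells and 27.7% in unstimulated knockout cells, while the share of Vamp8 was 27.6% and 23.8%. These shares were not tested. Spread over the 12 libraries was smallest for Stxbp2 (coefficient of variation 7.73% of CPM) and largest for Sytl1 (40.1%) and Stx3 (33%).

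**Figure D2:**
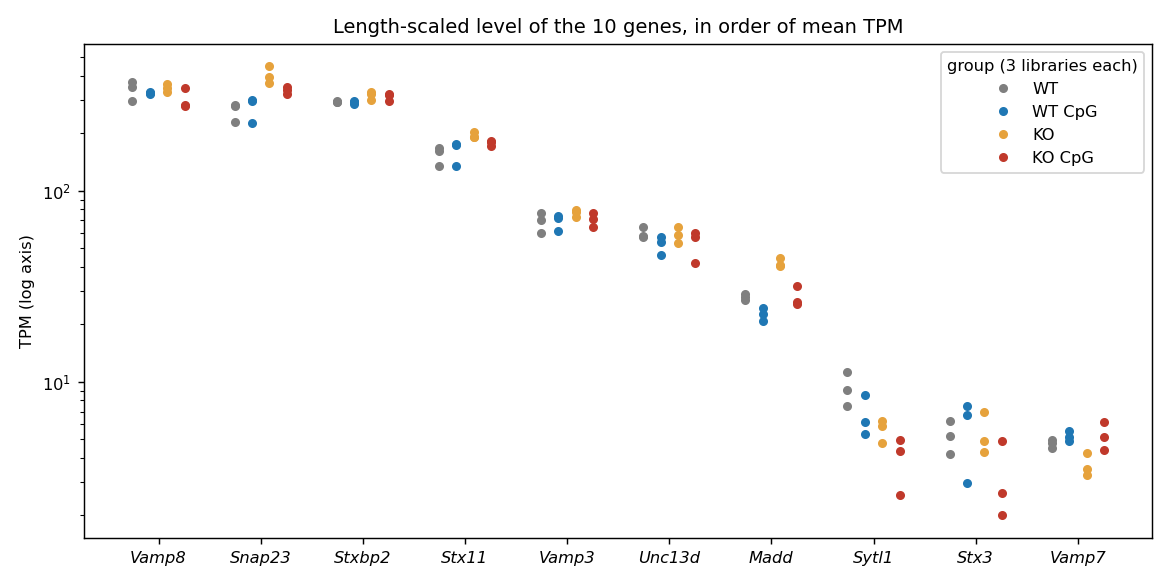
TPM of the 10 genes on a log axis, 1 point per library, coloured by group of 3. Vamp8, Snap23, Stxbp2 and Stx11 lie at 134.3 TPM or more in all libraries, and Sytl1, Stx3 and Vamp7 at 11.3 TPM or less.

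Of the Rab27a partners, Sytl1 (the synaptotagmin-like tether JFC1) was lower in the knockout. It was counted at 11.6, 9.40 and 15.2 CPM in unstimulated wild-type libraries 1 to 3 and 7.81, 6.65 and 11.8 CPM with CpG, and in the knockout at 7.18, 5.97 and 7.04 CPM and then 6.98, 5.47 and 3.13 CPM. Unstimulated, all 3 knockout libraries lay below all 3 wild-type libraries, as they did for 13% of all genes; with CpG they overlapped. Averaged over treatments Sytl1 fell by 0.79 on the log2 scale (SE 0.20, 1.73-fold lower, adjusted p = 0.0221, edgeR quasi-likelihood with Benjamini-Hochberg); with animal as a random block it did not pass (adjusted p = 0.0826, limma voom). The unstimulated difference alone was -0.84 (adjusted p = 0.128, edgeR) and that with CpG -0.75 (adjusted p = 0.188, edgeR). Wild-type libraries numbered 3 had the highest Sytl1 of their groups. Leaving both out gave -0.54 (adjusted p = 0.127, edgeR), and leaving out unstimulated wild-type 3, wild-type 3 with CpG or unstimulated knockout 2 gave adjusted p of 0.0585, 0.0638 and 0.0634. Without both knockout libraries numbered 1, or those numbered 3, it was -0.92 and -0.67 (adjusted p = 0.0220 and 0.0346). The counts behind Sytl1 were low, 40 to 189 per library. CpG gave -0.47 in wild-type and -0.38 in the knockout, neither of which passed the test.

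Madd, the exchange factor, changed in both contrasts. Its levels were 122.1, 123.5 and 125.8 CPM in unstimulated wild-type cells and 98.6, 103.6 and 99.1 CPM with CpG. In the knockout they were 171.4, 190.4 and 157.1 CPM unstimulated and 123.9, 144.6 and 108.7 CPM with CpG. Every knockout library lay above every wild-type library of the same treatment (12% of all genes unstimulated, 10.3% with CpG), and every CpG library lay below every unstimulated library of the same genotype (11.2% of genes in wild-type, 11.5% in the knockout). Unstimulated knockout exceeded wild-type by 0.48 on the log2 scale (SE 0.11, adjusted p = 0.0245, edgeR quasi-likelihood with Benjamini-Hochberg), and averaged over treatments by 0.40 (SE 0.080, adjusted p = 0.00484). With CpG the difference was 0.32 (adjusted p = 0.142). CpG lowered Madd by a log2 change of -0.46 in the knockout (SE 0.11, adjusted p = 0.0156) and of -0.38 averaged over genotypes (SE 0.080, adjusted p = 0.00408). In wild-type it gave -0.30 (adjusted p = 0.174); libraries with the same number deviated together in wild-type, and with animal as a block it passed the test (adjusted p = 0.00972). The fitted interaction was -0.16 (SE 0.16), so the CpG effects of the genotypes were not shown to differ.

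Single libraries decided some of these Madd calls. The unstimulated genotype difference lost its call without unstimulated wild-type 1 or 3 (adjusted p = 0.0693 and 0.0538, edgeR) or unstimulated knockout 1 or 2 (adjusted p = 0.0802 and 0.145), at log2 differences of 0.41 to 0.51. The CpG effect in the knockout lost its call without unstimulated knockout 2 (-0.38, adjusted p = 0.0948), and without both knockout libraries numbered 1 (-0.47, adjusted p = 0.0663). Without knockout 3 with CpG, the genotype difference with CpG was called (0.44, adjusted p = 0.0269). Both averaged differences were called in all 12 fits that leave out 1 library. The averaged genotype difference was 0.43 without both knockout libraries numbered 1 and 0.49 without those numbered 3, which had the lowest and the highest erythroid sums (adjusted p = 0.0115 and 0.000863, edgeR). Madd counts were spread over 39 transcripts, 36 of them predicted, and the 3 curated ones held 0.0 to 6.4% of them, so with curated transcripts alone no Madd comparison was called.

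Unc13d (Munc13-4), the docking and priming factor, did not pass any test. Its levels were 171.1, 163.9 and 201.7 CPM in unstimulated wild-type cells, 155.8, 132.1 and 182.4 CPM with CpG, 181.1, 168.8 and 137.7 CPM in unstimulated knockout cells and 185.4, 180.1 and 117.1 CPM in the knockout with CpG. All groups overlapped, and the averaged genotype difference had a 95% interval of -0.32 to 0.22 on the log2 scale. Stxbp2 (Munc18-2) had narrow intervals: -0.12 to 0.23 for the averaged genotype difference and -0.13 to 0.21 for the averaged CpG effect. It ran from 370.5 to 489.4 CPM over the 12 libraries, with overlapping groups. Predicted transcripts held most counts of both genes: the curated ones took 6.9 to 20.9% of Unc13d counts and 17.9 to 23.3% of Stxbp2 counts.

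Among the target-membrane syntaxins, Stx11 was at 286.7, 293.5 and 260.5 CPM in unstimulated wild-type cells and 328.0, 353.3 and 303.6 CPM in unstimulated knockout cells. With CpG it was at 306.0, 307.8 and 264.3 CPM in wild-type and 334.2, 338.1 and 308.5 CPM in the knockout. Within each treatment the 3 knockout libraries lay above the 3 wild-type libraries, as they did for 12% of all genes unstimulated and 10.3% with CpG. The averaged difference was 0.19 (SE 0.073, adjusted p = 0.104, edgeR), which does not pass; of 23 other settings 5 called it, among them DESeq2 (0.21, adjusted p = 0.0208) and the fit without knockout 3 with CpG (adjusted p = 0.0468). Stx11 counts fell on 4 transcripts with at least 10% each.

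Stx3, a syntaxin of granule and plasma membrane fusion, was scarce and uneven. Its levels were 11.94, 13.95 and 10.1 CPM in unstimulated wild-type libraries 1 to 3, and 16.8, 14.8 and 7.43 CPM with CpG. In the knockout they were 9.35, 10.89 and 13.99 CPM unstimulated and 5.06, 6.08 and 10.7 CPM with CpG. Knockout library 3 was the highest in both knockout groups, as were the erythroid, B lineage and progenitor sums given above, and the part of those cells in this result was not tested. The genotype difference with CpG was -0.84 (SE 0.31, adjusted p = 0.174, edgeR); without knockout 3 with CpG it was -1.21 (adjusted p = 0.0447). The CpG effect in the knockout was -0.65 (SE 0.32, adjusted p = 0.252); with animal as a block it was called (-0.68, adjusted p = 0.0183, edgeR), and as a random block too (-0.70, adjusted p = 0.0359, limma voom). The groups overlapped in each of the 4 comparisons.

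Snap23, the SNAP protein that completes the target-membrane side of the SNARE complex outside neurons, was higher in the knockout. Wild-type libraries held 430.7, 424.2 and 367.2 CPM unstimulated and 444.8, 442.5 and 374.7 CPM with CpG, and knockout libraries 656.5, 587.2 and 494.1 CPM unstimulated and 591.7, 486.2 and 487.9 CPM with CpG. All 6 knockout libraries lay above all 6 wild-type libraries, which held for 2.32% of all genes tested. The difference was 0.51 on the log2 scale unstimulated (SE 0.13, 1.42-fold, adjusted p = 0.0459, edgeR quasi-likelihood with Benjamini-Hochberg), 0.31 with CpG (SE 0.13, adjusted p = 0.234) and 0.41 averaged (SE 0.094, 1.33-fold, adjusted p = 0.0129). The averaged difference was called in all 23 other fits, at 0.33 to 0.49. It was 0.33 without both knockout libraries numbered 1 and 0.49 without those numbered 3, the libraries with the lowest and the highest erythroid sums. The unstimulated call was lost without unstimulated wild-type 1, 2 or 3 (adjusted p = 0.0754, 0.0571 and 0.144, edgeR), wild-type 1 with CpG (0.0622) or unstimulated knockout 1 or 2 (0.216 and 0.157). CpG gave 0.05 in wild-type and -0.15 in the knockout, neither of which passed. A single curated transcript held about the same share of Snap23 counts in each group, 80.7 to 81.7%.

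**Figure D3:**
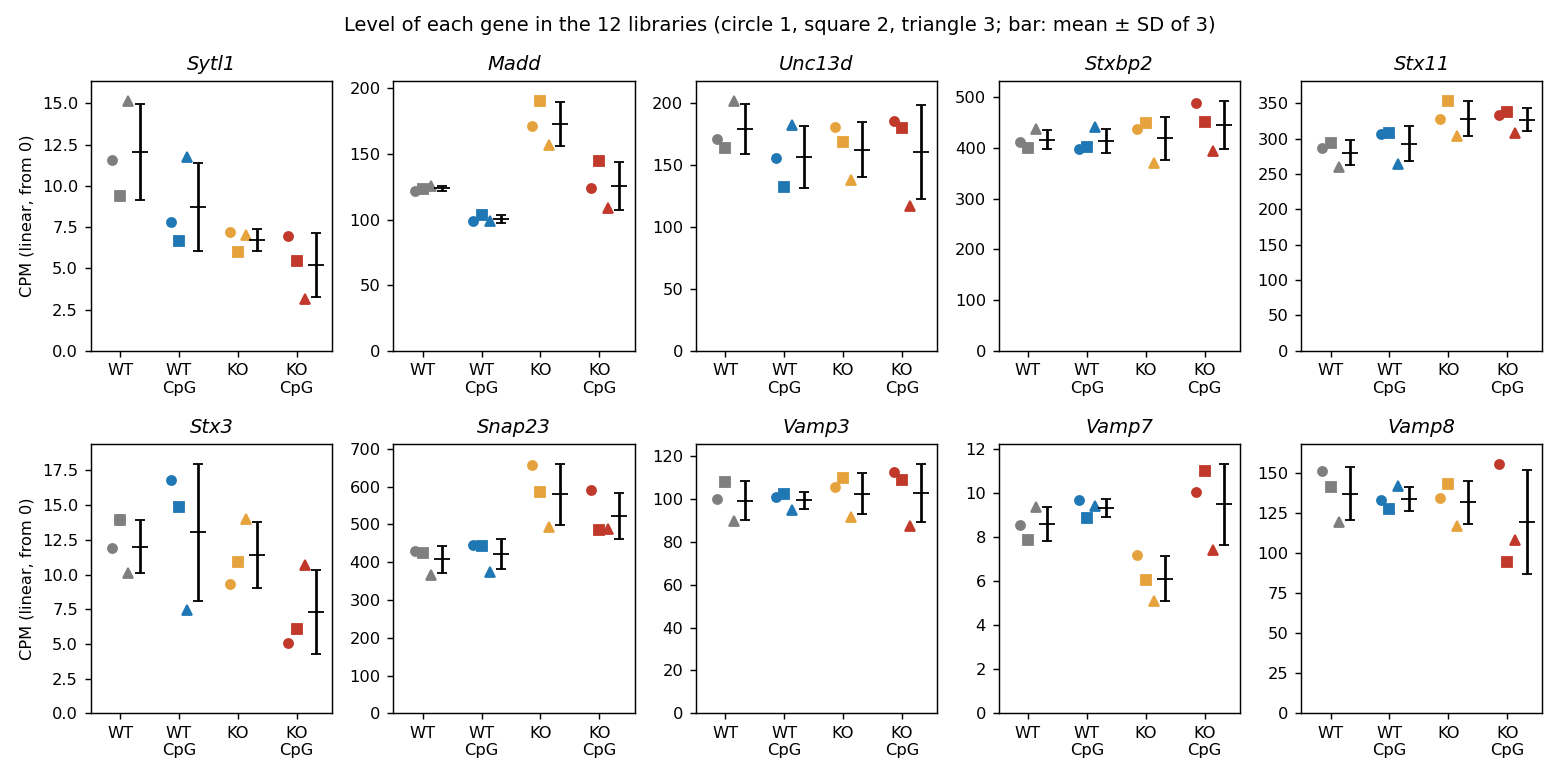
CPM (linear axis from 0) of the 10 genes in each of the 12 libraries, with the mean ± SD of each group of 3; symbols give the library number. Snap23 and Madd lie higher in the knockout, Sytl1 lower, and Vamp7 is lowest in the unstimulated knockout (5.11 to 7.18 CPM).

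On the granule side, Vamp7, an R-SNARE of late endosomes and lysosomes, rose with CpG in the knockout. Its levels were 8.53, 7.86 and 9.38 CPM in unstimulated wild-type cells, 9.68, 8.87 and 9.42 CPM in wild-type with CpG, 7.18, 6.06 and 5.11 CPM in unstimulated knockout cells and 10.03, 11 and 7.43 CPM in the knockout with CpG. In the knockout all CpG libraries lay above all unstimulated ones, as for 12.7% of genes, and all unstimulated knockout libraries lay below all unstimulated wild-type libraries, as for 13% of genes. The CpG effect in the knockout was 0.64 on the log2 scale (SE 0.19, 1.55-fold, adjusted p = 0.0415, edgeR quasi-likelihood with Benjamini-Hochberg), against 0.12 (SE 0.18, adjusted p = 0.869) in wild-type. The interaction was 0.52 (SE 0.26, unadjusted p = 0.0686, adjusted p = 1.00, edgeR), so the effects were not shown to differ. The unstimulated genotype difference was -0.49 (adjusted p = 0.183).

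This call was close to the threshold. It was kept in 3 of 12 fits that leave out 1 library, and lost without unstimulated wild-type 1 or 2 (adjusted p = 0.0571 and 0.0512, edgeR), wild-type 1, 2 or 3 with CpG (0.0793, 0.0538 and 0.0524), unstimulated knockout 2 or 3 (0.128 and 0.170) or knockout 1 or 2 with CpG (0.0906 and 0.145), at log2 effects of 0.48 to 0.63. Counts per library were 61 to 161. Monocyte or macrophage marker sums rose with the same treatment, as given above, with Csf1r and Adgre1 the only 2 of the 8 called higher. The part of those cells in the CpG results on Vamp7 and Madd was not tested.

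Vamp8, the most abundant VAMP and a granule R-SNARE, and Vamp3, an R-SNARE of recycling endosomes, passed no test. Vamp8 ran from 94.6 to 156.1 CPM, with both ends in the knockout with CpG (156.1, 94.6 and 108.2 CPM). On TPM this did not hold: those 3 libraries were at 346.1, 281.1 and 279.0 TPM, and unstimulated wild-type 1 was highest (369.9 TPM). Vamp3 ran from 87.1 to 112.4 CPM, and its averaged differences had 95% intervals of -0.13 to 0.23 for genotype and -0.18 to 0.18 for CpG on the log2 scale. Each had a single transcript in the files.

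Libraries of 1 number moved several members together. Wild-type libraries numbered 3 had the highest Unc13d, Sytl1 and Stxbp2 of their group with and without CpG, as 22.2% of all genes did, and the lowest Stx11, Stx3, Snap23 and Vamp3, as 21.5% did. Knockout libraries numbered 3 had the lowest Unc13d, Stxbp2, Stx11, Vamp3, Vamp7 and Madd of their groups, as 27.4% of all genes did, and the highest Stx3, as 21.9% did. Over the 12 libraries, departures of log2 CPM from the group mean ran together for Unc13d and Stxbp2 (Pearson r = 0.89, n = 12 libraries) and for Stx11 and Vamp3 (r = 0.83), and opposite for Unc13d and Stx3 (r = -0.88). The first and the last of these pairs had the highest and the lowest r of all member pairs. Removing 4 group means leaves 8 degrees of freedom, and libraries of the same number were not independent. These are descriptions over libraries that differ in depth and in cell type markers, and the part of these differences was not tested.

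**Figure D4:**
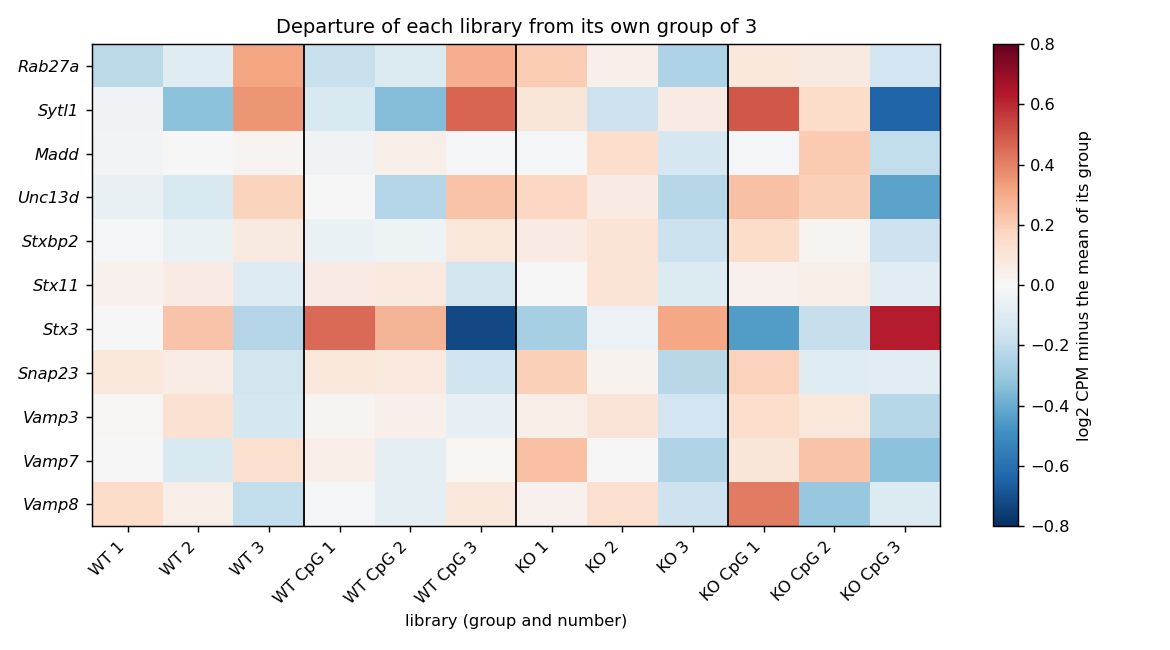
Departure of each gene's log2 CPM from the mean of its own group (colour scale, red higher, blue lower), for Rab27a and the 10 genes in the 12 libraries. Stx3 runs opposite to Unc13d and Sytl1 in libraries numbered 3 of wild-type, while in the knockout numbered 3 Stx3 is high and Unc13d low.

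Genes whose levels followed those of the changed members over the 12 libraries were searched among the 7914 genes averaging 5 CPM or more. The 3 nearest to Madd by Pearson r of log2 CPM were Sidt2 (0.98), Igf1r (0.97) and Rell1 (0.96). For Snap23 they were Oat (0.95), Clk1 (0.94) and Tmem170b (0.94), for Sytl1 Septin9 (0.96), Ralb (0.96) and Got2 (0.95), and for Vamp7 Akap13 (0.96), Rab8a (0.95) and Fbxw5 (0.95). The libraries fall into the same 4 groups and differ in depth and in cell type markers, and no p-value is attached.

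The rest of the machinery was read from 7 lists of 82 genes, of which 77 were in the files and 53 were tested. Between genotypes, averaged over treatments, 1 of the 53 rose and 6 fell, beside 6.01% and 6.23% of all genes. These calls come from the edgeR fit without a block, and the list genes were not checked with animal as a block. With animal as a random block in limma voom 5.46% of all genes were called for this contrast, against 12.2% in the edgeR fit without a block. The exocyst tethering subunit Exoc3 was lower in the knockout in both treatments: 85.8, 90.7 and 73.7 CPM in unstimulated wild-type libraries against 43.92, 44.98 and 40.63 CPM in the knockout, and 72.4, 73.8 and 71.0 CPM against 41.1, 38.5 and 37.1 CPM with CpG. It fell by 0.92 on the log2 scale (SE 0.071, edgeR adjusted p = 1.13e-06) and no knockout library reached a wild-type one. Of the other 8 exocyst subunits, Exoc6 also fell, by 0.32 on the log2 scale.

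Of 19 Q-SNAREs tested, 3 were called lower in the knockout averaged over treatments, by the edgeR fit without a block. They were Use1 of the endoplasmic reticulum (log2 -0.43), Stx8 of late endosomes (-0.64) and Stx16 of the trans-Golgi (-0.36). Baiap3, a Munc13 family member, fell by 1.25 on the log2 scale, and the Rab27 effector family member Sytl3 rose by 0.65. Baiap3 was at 6.825, 6.021 and 10.42 CPM in unstimulated wild-type libraries and 2.739, 2.372 and 2.764 CPM in unstimulated knockout libraries, which is scarce. With CpG it was at 5.93, 4.589 and 5.183 CPM in wild-type and 4.1, 3.007 and 1.095 CPM in the knockout. Sytl3 was scarce: 2.13, 2.20 and 2.24 CPM in unstimulated wild-type libraries and 3.50, 5.36 and 3.52 CPM in unstimulated knockout libraries. With CpG its groups overlapped, at 2.33, 3.14 and 2.42 CPM in wild-type and 4.10, 2.80 and 3.44 CPM in the knockout. Within the unstimulated cells Exoc3, Use1 and Baiap3 were called, and with CpG Exoc3 and Use1. None of the 6 R-SNAREs, 4 disassembly genes or 3 genes of the synaptotagmin list tested was called by edgeR between genotypes averaged over treatments. The 3 included the membrane-contact protein Esyt2, and most of the 14 genes on that list were not tested.

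With CpG, averaged over genotypes, 2 of the 53 rose and 3 fell, beside 10.2% and 7.08% of all genes. Stx6, a trans-Golgi and endosome Q-SNARE, rose from 28.9, 27.5 and 30.8 CPM to 39.5, 43.3 and 42.8 CPM in wild-type and from 29.9, 27.2 and 27.6 CPM to 53.6, 55.4 and 41.3 CPM in the knockout (log2 0.53 and 0.83). It was the only list gene called with CpG in wild-type. Sec22b, an R-SNARE of the endoplasmic reticulum and Golgi, rose by 0.36 averaged over genotypes and 0.45 in the knockout. Exoc1 (-0.34), Vamp1 (-0.49) and the membrane-contact protein Esyt2 (-0.36) fell averaged over genotypes, and in the knockout Esyt2 (-0.50) and Napa (-0.37), the alpha-SNAP that helps take SNARE complexes apart, fell. The median over the 53 was -0.03, beside -0.01 over all genes.

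**Figure D5:**
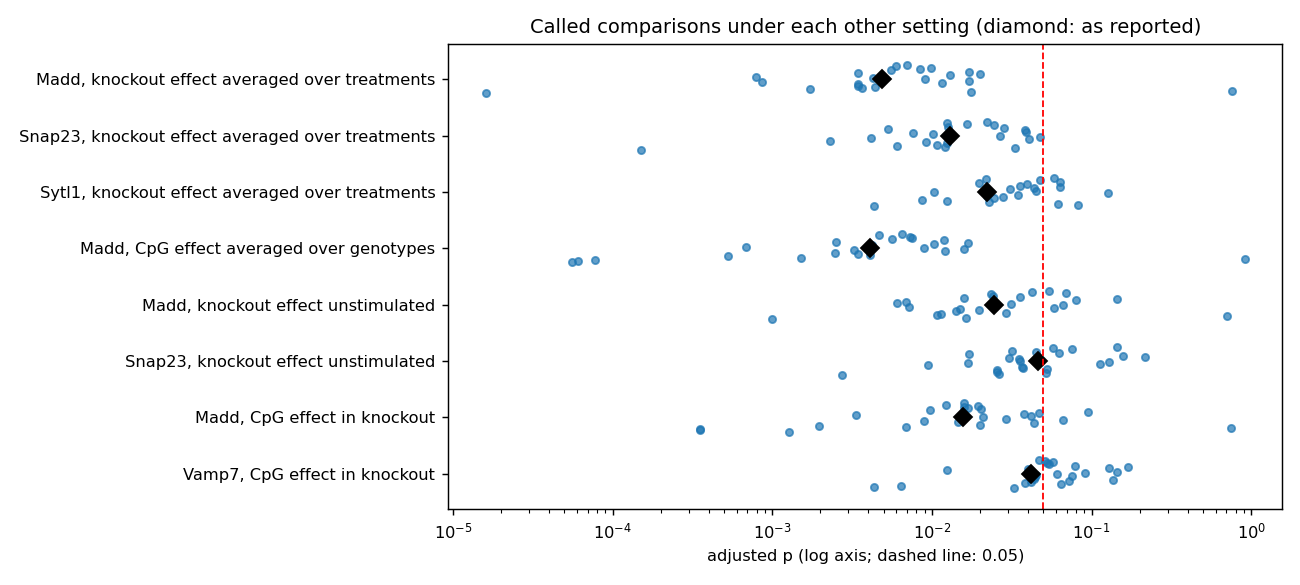
Adjusted p (log axis) of the 8 called comparisons of members as reported (diamonds) and under each other setting (points), with the 0.05 threshold dashed. The averaged Snap23 difference lies below the threshold throughout, at 0.0477 or less. Every other comparison has points on both sides of it, and Vamp7 was called in the smallest share of the other settings (11 of 25).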

How the data were processed

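PolyA RNA of 12 libraries was sequenced on an Illumina HiSeq instrument. Expected counts per RefSeq transcript were deposited by the authors, with RSEM 1.2.28, Bowtie2 (version not stated) and build GRCm39 named in the submitters' processing notes. TPM values deposited by the authors are scaled to a fixed sum per library, per the file headers, and served to compare genes. FPKM values deposited by the authors were not used. The sources used here give neither strandedness nor read filters.

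Counts of 54716 transcripts were summed per gene and rounded. Names came from RefSeq of GRCm38.p6, an earlier build, and matched 15883 of 15986 genes. Genes were filtered by filterByExpr (smallest count 10, smallest total 15), scaled by TMM (0.900 to 1.093) and fitted with edgeR 4.0.16 (R 4.3.3) quasi-likelihood, one mean per group over the 12 libraries, with Benjamini-Hochberg adjustment over 10802 genes and a threshold of 0.05. CPM uses the TMM-scaled library sizes. The code was tested on simulated data. Standard errors are those of the fitted log2 fold change. Named genes are the 10 members, Rab27a, every list gene called in any comparison, and the 3 genes most correlated with each called member.

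Libraries with the same number deviated together in wild-type (r of 0.279, 0.408 and 0.437, all above 0.1). In the knockout r was 0.619, 0.085 and 0.678, so 2 of 3 numbers passed 0.1. Unstimulated knockout 2 still had a lower r with CpG libraries 1 and 3 (0.0304 and -0.0978). In both genotypes each unstimulated library was thus closest to the CpG library of its number. This pairing comes from the data and not from the labels, and is weak for knockout number 2. Alternatives were another scaling, filter, tool (DESeq2 1.42.0), transcript set, replicate blocks (limma 3.58.1 voom for a random one) and leaving libraries out. The members and lists were chosen with earlier results of these data known.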

Additional observations from a re-analysis of the deposited data

How the results depend on the processing

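Of 1690 recomputed member values, 1626 kept their side of the threshold, 42 calls were lost, 22 were gained, no called value changed sign, and 123 uncalled ones did. Most of the 1690 were uncalled to begin with. Calls were kept in 23 of 23 other settings for averaged Snap23 and in 14 of 24 for unstimulated Snap23. For Madd it was 22 of 23 (averaged genotype), 23 of 24 (averaged CpG), 17 of 24 (unstimulated genotype) and 22 of 25 (CpG in the knockout). For averaged Sytl1 it was 17 of 23, and for Vamp7 with CpG in the knockout 11 of 25. With no filter on low counts, 1 member each was called for CpG in the knockout and for the unstimulated knockout, against 7.72% and 3.63% of all genes. Fitting only the libraries compared left 1 for CpG in the knockout (9.86% of all genes). It gave 3 for the unstimulated knockout (6.1% of all genes), where Sytl1 was gained (adjusted p = 0.0495, edgeR). With curated transcripts alone the counts were 0 for CpG in the knockout, 0 for the unstimulated knockout, 0 for averaged CpG and 1 for the averaged knockout. The shares of all genes were 8.52%, 2.78%, 13.1% and 7.76%, and Madd has almost no curated counts. Without both knockout libraries numbered 1 the counts were 0 and 0 for CpG in the knockout and the unstimulated knockout, against 8.79% and 3.1% of all genes. Without those numbered 3 they were 2 for the knockout with CpG (Stx3 and Madd), 2 for averaged CpG and 5 for the averaged knockout, against 7.59%, 16.1% and 20.2% of all genes. Without both wild-type libraries numbered 3 they were 1 for CpG in the knockout and 0 for the unstimulated knockout, against 12% and 2.95% of all genes. These 3 settings, and the random block, were added after seeing the data.

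Leaving out 1 library at a time gave 0 to 2 members for CpG in the knockout (7.42 to 12.2% of all genes) and 0 to 2 for the unstimulated knockout (2.52 to 5.53%). It gave 0 to 2 for the knockout with CpG (2.13 to 6.4%), 1 to 2 for averaged CpG (13 to 18.5%) and 2 to 4 for the averaged knockout (7.32 to 16.1%). The replicate number as a block gave 0 for CpG in wild-type, 2 for CpG in the knockout and 2 for the unstimulated knockout, as reported. The shares of all genes were 6.92%, 13% and 6.05%. For the averaged knockout this block gained Stx11 (0.195, adjusted p = 0.0436, edgeR), against 14.6% of all genes called. Animal here means genotype and number together, which the labels do not state to be 1 animal. As a replicate block it gave 1 for CpG in wild-type (Madd) and 3 for averaged CpG (Sytl1, Vamp7 and Madd), against 16.9% and 30.1% of all genes. As a random replicate block in limma voom it also gave 1 and 3, against 15.3% and 29.5%. With the random block the averaged genotype effects had adjusted p of 0.0177 for Madd, 0.0333 for Snap23 and 0.0826 for Sytl1, against 5.46% of all genes called. Both blocks also called Stx3 for CpG in the knockout (adjusted p = 0.0183, edgeR, and 0.0359, limma voom), against 24% and 23% of all genes. Scaling by library size alone turned the 818 higher and 439 lower genes for CpG in the knockout into 739 and 778. The genotype comparisons could not be fitted with animal as a fixed block, since each animal has 1 genotype. In the order of levels Vamp8 moved from place 1 on TPM to 5 on CPM. Depth limits the scarce members most: Sytl1 had 40 to 189 counts per library, Stx3 58 to 224 and Vamp7 61 to 161.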
